A study of Homo sapiens with 3 samples.

Results

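Epidermal and wound keratins are described here in HaCaT cells, an established, spontaneously immortalized line of human epidermal keratinocytes. The set holds 10 genes in 3 groups, the basal keratins KRT5, KRT14 and KRT15, the suprabasal keratins KRT1, KRT10 and KRT2, and the wound keratins KRT6A, KRT6B, KRT16 and KRT17. They were found by the gene name in the array annotation, where KRT2 carries its older name KRT2A and was matched by its gene number. All 10 were present, with 16 of the 42947 transcripts that carry a gene name, and they are 10 of 23595 genes and of 57 measured keratins. The RNA came from cells given all-trans retinoic acid (ATRA, the active form of vitamin A, at 1 µM) together with nicotinamide (NIC, an amide form of vitamin B3), from cells given ATRA, and from untreated control cells, all after 36 h according to the labels. The nicotinamide dose was not given in the sources used here, and cells given nicotinamide without ATRA were not analysed here. Each group is 1 single-colour NimbleGen array, so no test between groups is possible, no value has an error between cultures, and every difference describes these arrays.

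Keratins are the intermediate filament proteins of epithelial cells, and each filament is built from pairs of a type I and a type II chain. In epidermis, cells of the basal layer make keratin 5 (type II) and keratin 14 (type I), with keratin 15 (type I) as a further basal chain. Cells that leave the basal layer switch to keratin 1 (type II) and keratin 10 (type I), and keratin 2 (type II) follows in the upper layers. Keratin 6 (type II), keratin 16 and keratin 17 (both type I) are scarce in resting epidermis between hair follicles and are induced at wound edges and in hyperproliferative skin. Retinoic acid is known to act on keratin gene transcription in cultured keratinocytes through its nuclear receptors.

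Values are intensities on a linear scale, as the authors deposited them, or their log2. The 2508 random probes, which match no human transcript, gave 19.6, 18.4 and 18.9 on the ATRA+NIC, ATRA and control arrays, and the value table of the authors holds no transcript under an intensity of 50. The median transcript intensity lay between 297.9 and 302.3. A gene's level is the mean log2 over its transcripts, and a gene passed the filter when its level reached the median of all genes and arrays, 7.95, on at least 1 array. This held for 12467 genes and for 8 of the 10 keratins, all but KRT10 and KRT2. Between transcripts of a gene, the log2 differences varied with a pooled SD of 0.30 for ATRA+NIC minus ATRA, 0.31 for ATRA minus control and 0.24 for ATRA+NIC minus control. This scatter lies within these arrays, may include real differences between transcripts, and holds no variation between cultures. All 10 keratinocyte identity genes examined, such as TP63, CDH1, DSP and SFN, were above an intensity of 50 on every array. They summed to an intensity of 115349 with ATRA+NIC, 140762 with ATRA and 131285 in the control. Of these genes 9 of 10 were lower on the ATRA+NIC than on the ATRA array, TP63 by 2.70-fold and the desmosomal cadherin gene DSG3 by 2.54-fold. The levels of 10 leukocyte markers summed to an intensity of 3116 with ATRA+NIC, 5133 with ATRA and 2685 in the control, and 8 of the 10 were higher on the ATRA than on the control array. Those of 6 endothelial markers summed to 3434, 2729 and 359.7, with CDH5 as the brightest, those of 10 fibroblast markers to 2128, 1957 and 2009, and those of 7 melanocyte markers to 704.2, 557.3 and 452.4. The part of these markers in the keratin values was not tested. In RNA from a whole culture, fewer cells of a kind and less RNA per cell cannot be told apart.

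The sequences just upstream of KRT5 and KRT10 are shown because these genes mark the basal and the first suprabasal layer. They also lay on opposite sides of the control on both treated arrays, but KRT10 was near background and under the filter. Its log2 difference of 0.32 for ATRA minus control was close to the scatter between transcripts, and was 0.12 with an offset of 100. They are the 250 bases before the annotated start, from RefSeq on GRCh38.p14, read 5′ to 3′ along the gene. KRT5 lies on the minus strand at chr12:52520395-52520644 and KRT10 on the minus strand at chr17:40822615-40822864. Capitals mark letters that match a searched motif.
KRT5: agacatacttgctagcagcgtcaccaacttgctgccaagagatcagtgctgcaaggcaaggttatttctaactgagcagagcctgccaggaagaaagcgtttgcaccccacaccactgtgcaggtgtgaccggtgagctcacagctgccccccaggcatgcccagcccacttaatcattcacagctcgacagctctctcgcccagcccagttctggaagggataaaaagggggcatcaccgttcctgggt
KRT10: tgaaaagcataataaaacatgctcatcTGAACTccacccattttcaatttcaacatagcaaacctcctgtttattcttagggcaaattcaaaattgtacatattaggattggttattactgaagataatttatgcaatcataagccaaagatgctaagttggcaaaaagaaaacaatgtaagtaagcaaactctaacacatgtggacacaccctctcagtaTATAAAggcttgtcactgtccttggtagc
Both strands were searched for core elements of retinoid receptor sites, with the letters AGGTCA for the first, AGTTCA for the second and GGGTCA for the third variant. The AP-1 motif, spelled TGANTCA, and the TATA box, spelled TATAAA, were searched as well. The KRT10 window held AGTTCA once, as its reverse complement TGAACT with its first base at −223, and TATAAA at −29, with positions counted back from the start. The KRT5 window held none of the 5 motifs as spelled here, and neither did that of KRT2, which is not printed. Near spellings were not searched, so a window without a match may still hold a variant of an element. Among all 35116 promoter windows of this length, AGTTCA was found in 8.80%, AGGTCA in 12.1%, GGGTCA in 12.1%, TGANTCA in 6.57% and TATAAA in 10.7%. A match describes letters only. Windows for 3 of the 10 keratins were in the table used.

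KRT5, the type II keratin of the basal layer, was much lower on both treated arrays. Its files hold 2 transcripts on chromosome 12 of build hg18. NM_000424, at 51194627 to 51200510, had intensities of 8315 on the ATRA+NIC array, 7998 with ATRA and 31586 in the control. BC024292, at 51194627 to 51200434, had 12048, 12605 and 28012. Both transcripts showed the control array high and the treated arrays close to each other. At the gene level KRT5 was 2.96-fold lower on the ATRA than on the control array and 2.97-fold lower on the ATRA+NIC than on the control array. ATRA+NIC and ATRA differed by −0.00 on the log2 scale. The transcripts differed in size, with log2 differences for ATRA minus control of −1.98 for NM_000424 and −1.15 for BC024292. Of the 12467 genes passing the filter, 62 were at least as low in that comparison, KRT5 included. Among the 1247 of them with the highest mean level over the arrays, KRT5 was the lowest.

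KRT15, a type I keratin of basal cells, went the other way. Its transcript on chromosome 17 (hg18, 36923523 to 36928666) had intensities of 16281 with ATRA+NIC, 15893 with ATRA and 7687 in the control. The treated arrays were again close to each other, now on the high side. KRT15 was 2.07-fold higher for ATRA against control and 2.12-fold higher for ATRA+NIC against control, and ATRA+NIC minus ATRA was 0.03 on the log2 scale. It was read by 1 transcript, so no second measurement stands beside it. KRT14, which encodes the usual type I partner of keratin 5, did not show the difference of KRT5 on its 1 transcript. It was far dimmer than KRT5, and how well its probes read it was not tested. Its transcript at 36992058 to 36996673 on chromosome 17 had intensities of 451.6 with ATRA+NIC, 384.8 with ATRA and 371.7 in the control. The difference for ATRA minus control was 0.05 and that for ATRA+NIC minus control 0.28 on the log2 scale, the first well inside the scatter between transcripts and the second close to it. The basal keratins therefore gave 1 gene lower, 1 higher and 1 under 2-fold against the control, on each treated array.

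**Figure D1:**
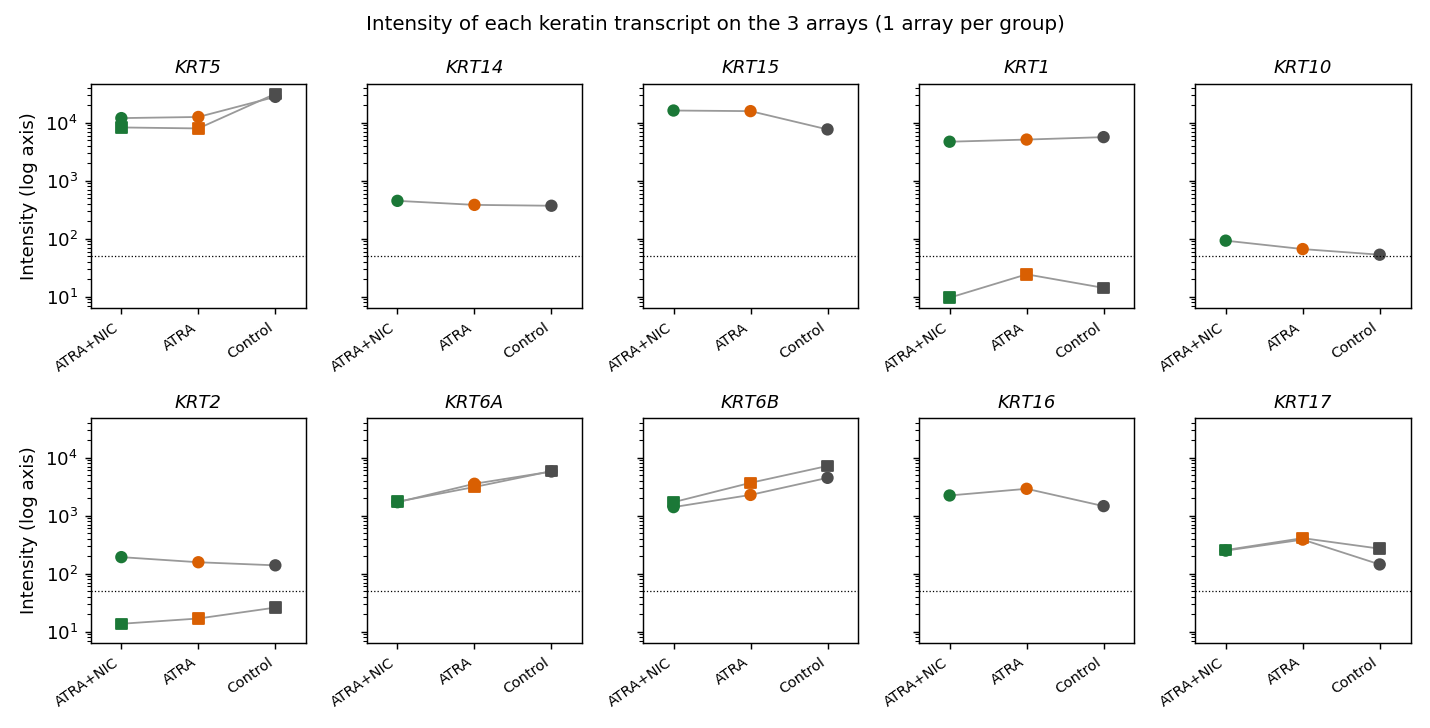
Intensity (log axis) of each transcript of the 10 keratins on the ATRA+NIC, ATRA and control arrays, with 1 array per group. Circles and squares are different transcripts of a gene, grey lines join the values of a transcript, and the dotted line is an intensity of 50. KRT5 is lower and KRT15 higher on both treated arrays than on the control array, KRT6A and KRT6B are lowest on the ATRA+NIC array, and KRT16 and KRT17 are highest on the ATRA array.

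Of the suprabasal keratins none differed by 2-fold at the gene level in any comparison, and most of their values were dim. KRT1, the type II keratin of early differentiation, had a bright and a dim transcript on chromosome 12. BC063697, at 51354786 to 51360440, had intensities of 4720 with ATRA+NIC, 5141 with ATRA and 5665 in the control, differences of −0.12 for ATRA+NIC minus ATRA and −0.14 for ATRA minus control. NM_006121 lay at 9.67, 24.4 and 14.3, under 50 on every array, so no fold is given for it. The gene level of KRT1 averages these transcripts, and its difference of 0.32 for ATRA minus control becomes −0.14 when the dim transcript is left out, a setting chosen after seeing the data. The corresponding values for ATRA+NIC minus ATRA are −0.73 and −0.12.

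KRT10, the type I partner of keratin 1, was near background. Its transcript on chromosome 17 (36227894 to 36232373) had intensities of 93.0 with ATRA+NIC, 66.6 with ATRA and 53.2 in the control, all above 50 and all under the filter. Both treated arrays were above the control, by 0.81 for ATRA+NIC and 0.32 for ATRA on the log2 scale. The antisense gene KRT10-AS1 overlaps this region in the annotation, and the labels describe labelling of double-stranded cDNA, so signals of the strands cannot be told apart where probes overlap. Its transcript had 5332, 3259 and 5297 on the ATRA+NIC, ATRA and control arrays, a different order from that of KRT10. KRT2, the late suprabasal type II keratin, had 192.1, 156.8 and 138.7 on BC096294 and 13.6, 16.8 and 25.9 on NM_000423, the last under 50 throughout. The brighter transcript was higher by 0.47 on the log2 scale for ATRA+NIC minus control.

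The wound keratins split by type. KRT6A and KRT6B, the type II chains, were lower on the ATRA than on the control array and lower again on the ATRA+NIC array. KRT6A had intensities of 1731 with ATRA+NIC, 3108 with ATRA and 5827 in the control for NM_005554, which lies on chromosome 12 at 51167243 to 51173287. Its other transcript, BC008807, had 1698, 3534 and 5743. KRT6B had 1702, 3669 and 7166 for NM_005555, at 51126719 to 51132130, and 1398, 2270 and 4471 for BC034535. All 4 transcripts had the same order of arrays. At the gene level KRT6A was 1.75-fold lower for ATRA against control and 1.93-fold lower for ATRA+NIC against ATRA, each under 2-fold, and 3.37-fold lower for ATRA+NIC against control. KRT6B was 1.96-fold, 1.87-fold and 3.67-fold lower in the same comparisons. For ATRA+NIC minus control, 20 and 13 of the 12467 genes were at least as low as KRT6A and KRT6B, these genes included.

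KRT6A, KRT6B and KRT6C are near-identical in sequence, and the probes for any of them may bind the others, so these values are not independent of each other. KRT6C, read by 3 transcripts, was 1.86-fold lower for ATRA against control, 1.82-fold lower for ATRA+NIC against ATRA and 3.38-fold lower for ATRA+NIC against control. For 1 of its transcripts, NM_058242, the annotation gives a position of 51167243 to 51173240, inside that of KRT6A. Over the 7 transcripts of these genes, all 7 were lower in each comparison. Their log2 differences ran from −1.11 to −0.70 for ATRA minus control, from −1.11 to −0.70 for ATRA+NIC minus ATRA and from −2.10 to −1.53 for ATRA+NIC minus control.

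KRT16 and KRT17, the type I wound keratins, were highest on the ATRA array. KRT16 (chromosome 17, 37019555 to 37022545, 1 transcript) had intensities of 2220 with ATRA+NIC, 2893 with ATRA and 1455 in the control. It was 1.99-fold higher for ATRA against control, 1.30-fold lower for ATRA+NIC against ATRA and 1.53-fold higher for ATRA+NIC against control. KRT17 had 254.2 with ATRA+NIC, 408.4 with ATRA and 268.8 in the control for NM_000422, at 37029219 to 37034335. BC072018 had 248.6, 385.1 and 143.7. The transcripts agree on the ATRA array being highest and differ on the control, and KRT17 was 2.02-fold higher for ATRA against control at the gene level but 1.52-fold by its brightest transcript alone. The KRT17 transcripts gave −0.63 and −0.68 for ATRA+NIC minus ATRA. They differed in sign for ATRA+NIC minus control, at 0.79 and −0.08.

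**Figure D2:**
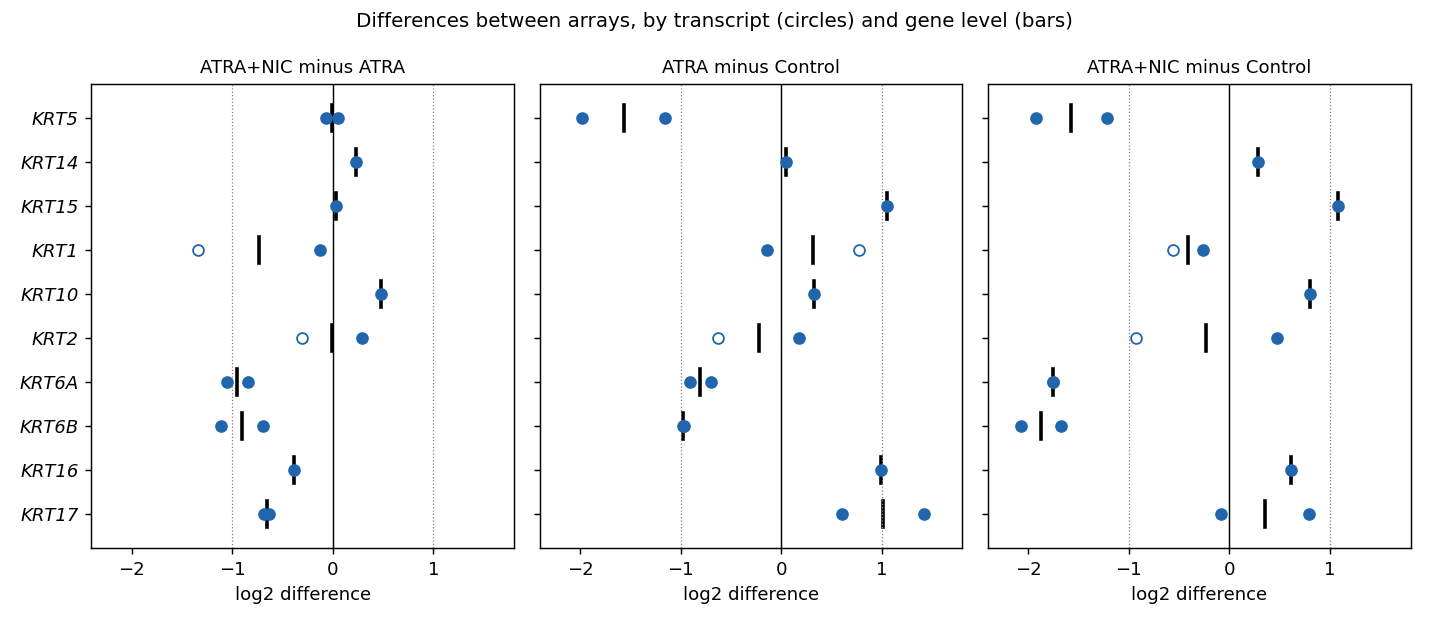
Log2 differences between arrays for the 10 keratins in the 3 comparisons. Circles are transcripts, open where the transcript is under an intensity of 50 on all arrays, black bars are gene levels and dotted lines mark 2-fold. By gene level, KRT5 and KRT15 lie beyond 2-fold against the control on both treated arrays. KRT17 does so only on the ATRA array, and KRT6A and KRT6B only on the ATRA+NIC array. All wound keratin transcripts lie below 0 for ATRA+NIC minus ATRA.

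Counted by the rule of size, KRT15 and KRT17 were at least 2-fold higher for ATRA against control, 2 of the 8 keratins passing the filter, where 3.83% of the 12467 genes were. KRT5 was at least 2-fold lower, 1 of 8, where 2.06% of genes were. For ATRA+NIC against ATRA, 0 of 8 were at least 2-fold higher and 0 lower, where 1.35% and 3.74% of genes were. For ATRA+NIC against control, KRT15 was at least 2-fold higher, 1 of 8 where 1.03% of genes were, and KRT5, KRT6A and KRT6B were lower, 3 of 8 where 0.971% of genes were. With 8 genes, of which KRT6A and KRT6B may share probes, these counts describe the genes named and no more. The comparisons share arrays, and each is given by its own values. For ATRA+NIC minus ATRA the median over all 10 keratins was −0.19 against 0.05 for all genes. Over the 8 passing the filter it was −0.52, and −0.25 when transcripts under 50 on all arrays are left out, the setting under which KRT1 lies at −0.12. All 7 wound keratin transcripts lay between −1.11 and −0.38 in that comparison, beside lower identity genes as given above. For ATRA minus control the median was 0.18 over the 10 keratins and over the 8, against −0.04 for all genes, and that of the 8 was −0.05 with the dim transcripts left out. The KRT17 call lay just past the threshold, and KRT16, at 0.99, and KRT6B, at −0.97, just inside it.

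Set out by keratin type, the genes with the clearest differences parted into type I, which were level or higher on the ATRA array, and type II, which were mostly lower. All 4 type I genes of the set that passed the filter, KRT14, KRT15, KRT16 and KRT17, had a difference above 0 for ATRA minus control, with a median of 1.00. Of the 4 type II genes, KRT5, KRT6A and KRT6B lay below 0, and KRT1 lay above 0 only through its dim transcript. The median of these 4 was −0.89. KRT6A and KRT6B may share probes and are counted separately here and for ATRA+NIC minus control below. Among the other keratins passing the filter, 4 of 5 of type I and 7 of 10 of type II were above 0, with medians of 0.32 and 0.13. Outside the set and apart from KRT6C, the lowest type II keratin in this comparison was KRT71, at −0.35. Its transcripts differed in sign. For ATRA+NIC minus control all 4 type I genes of the set were above 0 and all 4 type II genes below, with medians of 0.48 and −1.66. The KRT17 transcripts differed in sign there, at 0.79 and −0.08. Of the other keratins passing the filter, 4 of 5 of type I and 9 of 10 of type II were above 0. Their medians were 0.12 and 0.08, and KRT6C was the only other type II gene below 0. The grouping by type was made with the values known.

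**Figure D3:**
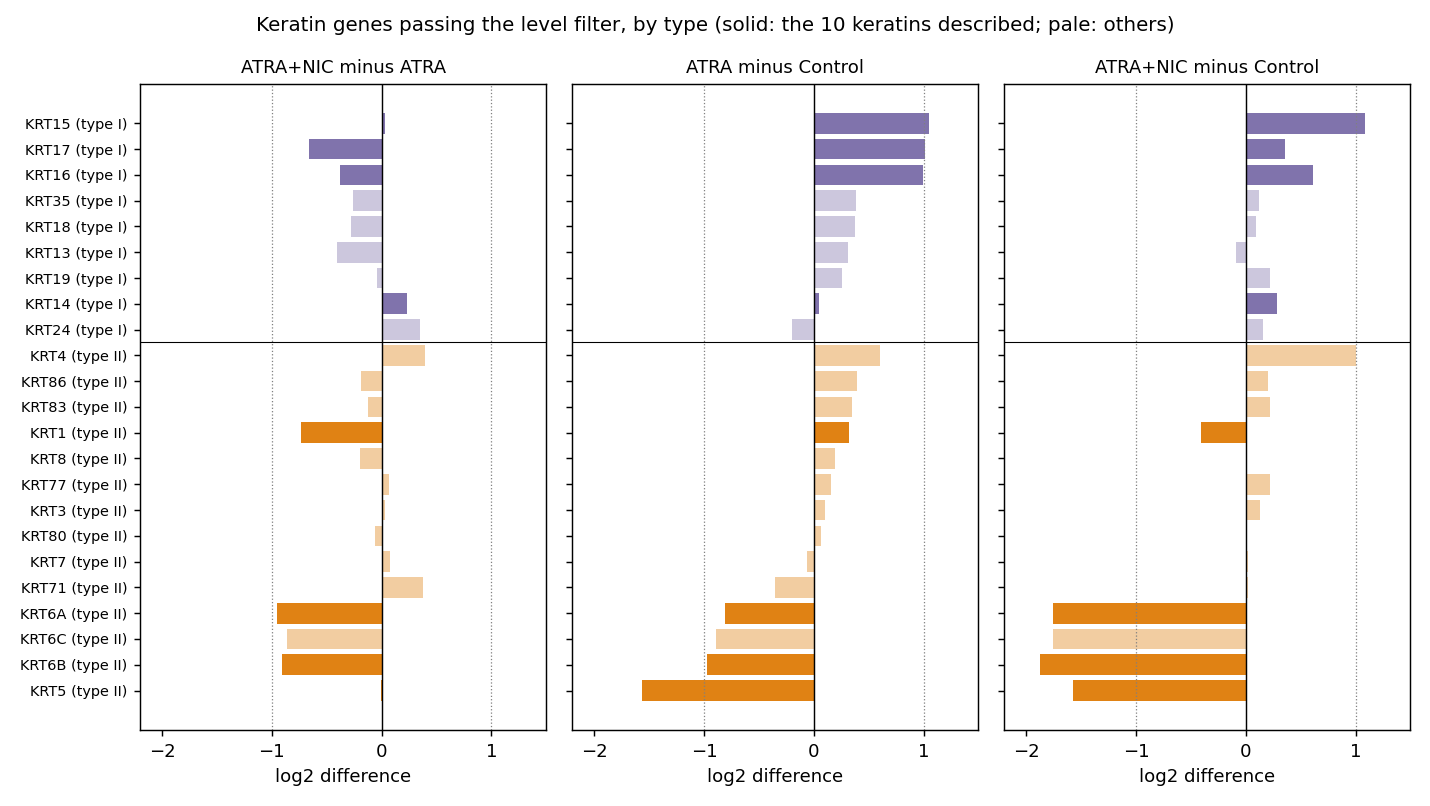
Log2 differences of the 23 keratin genes passing the filter, type I above and type II below the line, in the 3 comparisons, with dotted lines at 2-fold. Solid bars are keratins of the set and pale bars other keratins. For ATRA minus control KRT15, KRT16 and KRT17 stand at the top of type I and KRT5, KRT6A, KRT6B and KRT6C at the bottom of type II. The bar of KRT1 averages a bright and a dim transcript.

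Keratins of simple and mucosal epithelia, such as KRT8, KRT18 and KRT13, moved little. For ATRA against control, and likewise for ATRA+NIC against ATRA, 0 of the 6 passing the filter reached 2-fold. KRT18 was 1.30-fold and KRT13 1.24-fold higher for ATRA against control. KRT4 was higher by 0.61 on the log2 scale for ATRA minus control and 2.00-fold higher for ATRA+NIC against control, the only one past the threshold in that comparison. Among hair and root sheath keratins, 4 of 24 passed the filter, and 0 of these 4 reached 2-fold in any comparison. KRT86 was highest of the 4 for ATRA minus control, at 0.39, and KRT71 lowest, at −0.35. The transcripts of KRT86 differed in sign in that comparison, as did those of KRT71. Of the other epidermal keratins 5 of 11 passed. KRT6C apart, none of these 5 reached 2-fold, and KRT77 and KRT24 differed by 0.16 and −0.19 for ATRA minus control.

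Proteins that anchor or bind keratin filaments were examined next, among them plectin (PLEC), plakophilin 1 (PKP1) of the desmosome, filaggrin (FLG), which aggregates filaments in the granular layer, and FAM83H, a keratin-associated scaffold. Of 18 genes 17 passed the filter, and none of the 17 reached 2-fold in any comparison. For ATRA minus control 14 of 17 lay below 0, with a median of −0.26 against −0.04 for all genes. FLG was at −0.91, PKP1 at −0.66, FAM83H at −0.64 and EPPK1, which encodes epiplakin, at 0.67. The median for ATRA+NIC minus ATRA was 0.03, with FLG at 0.94, FAM83H at 0.75 and PLEC at 0.64.

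Genes of the basal layer other than keratins were mostly lower on the ATRA+NIC than on the control array. Of 13 that passed, 12 lay below 0 in that comparison, with a median of −0.60, and 2 were at least 2-fold lower, among them the tenascin gene TNC (at least 4.36-fold, since it was dim on the treated array). For ATRA minus control 8 of 13 lay below 0, with a median of −0.24, and TNC (at least 3.19-fold) and the anchoring fibril collagen gene COL7A1 (2.19-fold) were at least 2-fold lower. ITGA6, the integrin of hemidesmosomes, was at −0.89. The 5 genes above 0 for ATRA minus control included the laminin genes LAMB3, at 0.88, and LAMA3, at 0.17. LAMA3 was at −0.93 for ATRA+NIC minus ATRA. LAMB3 was the 1 gene above 0 for ATRA+NIC minus control, at 0.15. Of 20 genes of the spinous and granular layers 5 passed the filter. The cornified envelope gene IVL was 2.28-fold lower for ATRA against control and at 0.75 on the log2 scale for ATRA+NIC minus ATRA. FLG gave −0.91 and 0.94 in these comparisons, and SPRR1B, a further envelope precursor, 0.67 and −0.50.

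Transcription factors that act on keratin genes or on keratinocyte fate were examined last. The list was written with earlier results of these data known, so its counts describe the genes listed and are no test. Of 26 genes 22 passed, and 11 were at least 2-fold higher and 0 lower for ATRA against control, where 3.83% of all genes were higher and 2.06% lower. Their median was 0.96 against −0.04 for all genes. KLF4, a factor of terminal differentiation, was 6.70-fold higher, OVOL1, which promotes exit from proliferation, 6.66-fold, and GRHL1 3.36-fold. The AP-1 genes JUN and FOSL1 were 5.18-fold and 3.65-fold higher, and CEBPB 2.46-fold. For ATRA+NIC against ATRA 10 of 22 were at least 2-fold lower and 0 higher, where 3.74% and 1.35% of genes were, with a median of −0.89 against 0.05 for all genes. JUN was 15.8-fold lower, FOSL1 4.90-fold, OVOL1 4.19-fold and KLF4 4.06-fold. TP63, the master regulator of stratified epithelia, was 1.40-fold higher for ATRA against control and 2.70-fold lower for ATRA+NIC against ATRA. For ATRA+NIC against control JUN, at 3.05-fold lower, was the only one at 2-fold, and TP63 was 1.92-fold lower. KRT5 and KRT15 differed between the treated arrays by −0.00 and 0.03 on the log2 scale, less than the scatter between transcripts. KRT16 and KRT17, like most of these factors, were higher for ATRA minus control, at 0.99 and 1.01. They were lower for ATRA+NIC minus ATRA, at −0.38 and −0.66. Of the 9 type I keratins passing the filter, these included, 8 lay above 0 in the first comparison and 6 below 0 in the second. KRT6A and KRT6B were lower in both comparisons. A link between the factors and the keratins was not tested.

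**Figure D4:**
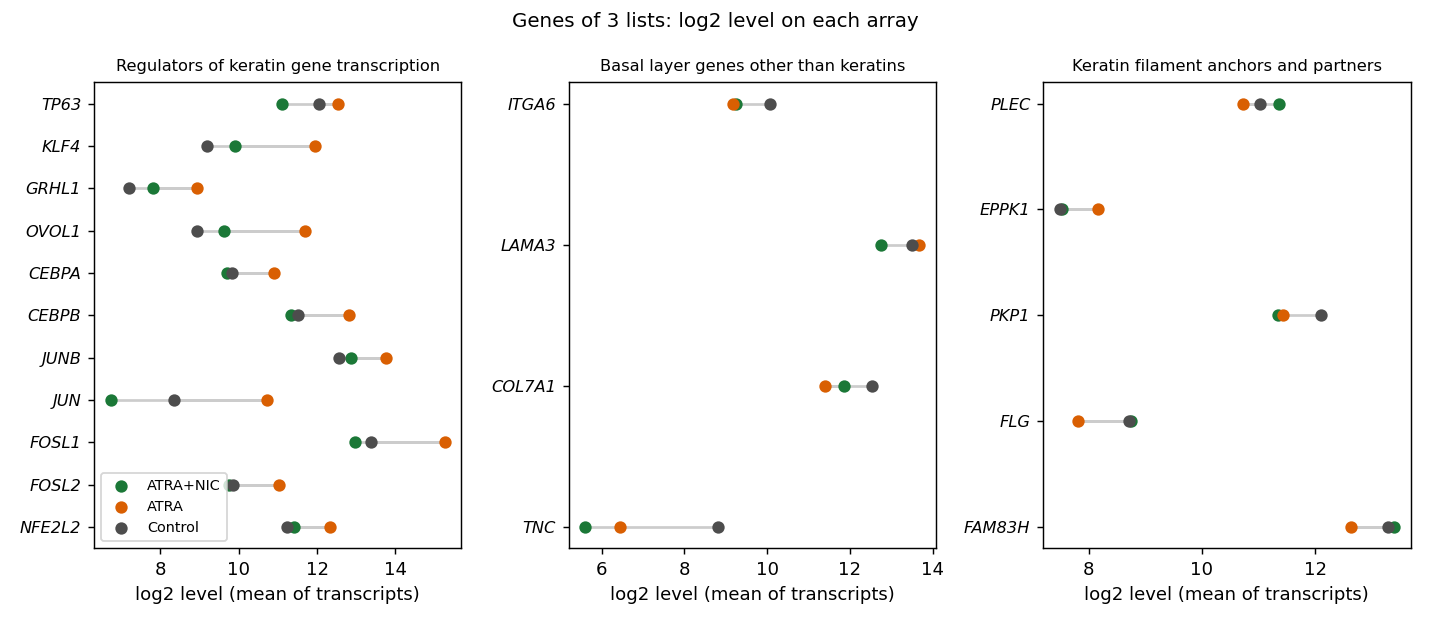
Log2 level (mean of transcripts) on the ATRA+NIC, ATRA and control arrays for genes of 3 lists, 1 array per group. Most transcription factor genes are highest on the ATRA array, whereas ITGA6 and PKP1 are highest on the control array and lie close together on the treated arrays.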

How the data were processed

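RNA of HaCaT cells was hybridised to 3 NimbleGen arrays labelled with Cy3, 1 per group. The deposited intensities are RMA calls over 3 probes per transcript, per the file headers. The RMA software was not given in the sources used here. No further scaling was applied, and log2 was taken with no offset. Of 45033 transcripts, 2086 without a gene name were left out. Of 23619 gene numbers, 20230 matched a symbol in a RefSeq table of GRCh38.p14, used for names and promoter sequences, and coordinates are those of the files on hg18. Genes called different were at least 2-fold apart. With 1 array per group there is no test and no p-value, and the number of arrays limits the precision. The value table deposited by the authors holds the same intensities for 31275 transcripts, equal within 0.001 on the log2 scale, and served as an alternative. The column headed as a standard error was not used, since its unit is undefined. The genes and lists were chosen with earlier results of these data known. Named are all 10 keratins, KRT6C and, of each list, members at least 2-fold different and the 3 with the greatest difference in either of the comparisons ATRA minus control and ATRA+NIC minus ATRA. Other settings were the brightest or median transcript, an offset of 100, a floor of 50, array centring, other filters, and leaving out transcripts under 50. Python 3.11.15, numpy 2.4.6 and pandas 2.3.3 were used. Some members of the lists are counted and not reported here by name.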

Additional observations from a re-analysis of the deposited data

How the results depend on the processing

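No paired analysis was possible because each group holds 1 array. The main limits are the single array per group, the shared probes of the KRT6 genes and the dim transcripts of KRT1, KRT2 and KRT10. No 2-fold keratin difference changed sign under these settings. No keratin of the set has more than 2 transcripts, so taking the median over transcripts cannot move its value, and the brightest transcript cannot move genes with 1. Keratins at least 2-fold higher for ATRA against control numbered 2, and 1, KRT15, with the brightest transcript, with the offset of 100, with the value table, at the 75th percentile filter and without transcripts under 50 (KRT17 fell short or did not pass the filter). With the brightest transcript 2 keratins, KRT6A and KRT6B, were at least 2-fold lower for ATRA+NIC against ATRA, where the main setting gave 0. The other counts of keratins stayed within 1.5 times.

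Counts of all genes are given as higher and lower. ATRA against control had 477 and 257 in the main setting, ATRA+NIC against ATRA had 168 and 466, and ATRA+NIC against control had 128 and 121. Without the filter they were 997 and 759, 728 and 973, and 548 and 491, which adds genes under the filter level. At the 75th percentile filter, which tests fewer genes, they were 234 and 74, 48 and 221, and 44 and 48. With the offset of 100 the lower count for ATRA against control was 130, the higher count for ATRA+NIC against ATRA 75, and those for ATRA+NIC against control 74 and 69. The value table, with fewer genes, gave 89 and 310 for ATRA+NIC against ATRA, 72 and 75 for ATRA+NIC against control, and 125 lower for ATRA against control. Leaving out transcripts under 50 gave 151 lower for ATRA against control. Centring moved the median of no comparison by more than 0.03 on the log2 scale.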

Other observations

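Other features of the keratin loci, chosen after their values were seen, are given as values. KRT16P3, a pseudogene related to KRT16, had intensities of 728.6, 933.5 and 416.3 on the ATRA+NIC, ATRA and control arrays for XM_930406, the same order of arrays as KRT16, and 43.1, 110.3 and 68.3 for BC110641. Sharing of probes between KRT16 and this copy was not tested. KRT33A, a hair keratin, had 116.4, 91.0 and 22.1 on the same arrays, with the control under 50.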
